A study of Mus musculus with 3 samples.

Results

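Translation factors are the proteins that bring ribosomes to messenger RNA, choose the start codon and drive the ribosome along the coding sequence. Among the 22028 protein-coding genes of the deposited gene tables, 67 had a symbol beginning with Eif (53 initiation factor genes) or Eef (14 elongation factor genes), and their RNA levels are described here. Eif2s3x and Eif2s3y, the X- and Y-linked copies of an eIF2 subunit gene, were not included. The RNA came from CD4 αβ T cells, labelled naive and thymus-derived, of 1 male adult mouse of strain B6.SJL-Ptprca Pepcb/BoyJ aged 5 months, a line that carries a distinguishable form of the leukocyte antigen Ptprc. PolyA-selected RNA was sequenced in 3 technical libraries of 1 biological replicate. There was no other group, so each SD is a technical spread over libraries (n = 3), and no value measures the variation between animals.

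Initiation begins when eIF2, bound to GTP and the initiator tRNA, joins the small ribosomal subunit together with eIF1, eIF1A, eIF3 and eIF5. The eIF4F complex (the cap-binding protein eIF4E, the scaffold eIF4G and the RNA helicase eIF4A) recruits this assembly to the capped mRNA, and eIF2B recharges eIF2 with GTP after each round. In elongation, eEF1A delivers aminoacyl-tRNA, the eEF1B subunits recharge eEF1A, and eEF2 moves the ribosome along the mRNA codon by codon. Resting naive T cells are small and make little protein, and they raise translation strongly on activation.

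Totals of expected counts over genes, which are estimated reads and need not be whole, were 14800852, 18170786 and 17448768 in libraries 1, 2 and 3. Levels are in TPM, each transcript's length-corrected share of a library scaled to a fixed total. The labelled cell type was checked against its markers: all 4 T cell and CD4 markers lay between 444 TPM (Cd4) and 2475 TPM (Trac), and all 5 naive markers between 377 TPM (Il7r) and 2632 TPM (Ccr7). Of 10 markers of other cells, 3 reached 1 TPM in every library, namely Cd8b1 (17 ± 0.235 TPM), the B cell gene Cd79a (2.06 ± 0.632 TPM) and the haemoglobin gene Hbb-bs (1.18 ± 0.312 TPM). In bulk RNA, fewer cells of a type and less RNA per cell cannot be told apart. Ribosomal RNA genes took 0.299%, 1.08% and 0.262% of TPM in libraries 1, 2 and 3, so library 2 stood apart in that measure.

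RNA of nearly the whole translation factor set was present. 64 of the 67 genes (95.5%) reached 1 TPM in every library, against 9823 of 22028 protein-coding genes (44.6%). 57 reached 10 TPM in every library and 27 reached 100 TPM. The median over the 67 genes was 64.2 ± 4.21 TPM, and the median over the protein-coding genes that were detected in every library was 31.4 ± 1.403 TPM. The set took 1.72%, 1.93% and 1.705% of all gene TPM in libraries 1, 2 and 3, and 1.71% on average without library 2. The initiation factor genes held 1.21% ± 0.0263 of TPM and the elongation factor genes 0.577% ± 0.151.

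A small number of genes held most of this RNA. Eef1a1 and Eif1 together made up 41.4%, 48.9% and 39.7% of the set's TPM in libraries 1, 2 and 3, and the 6 genes of highest level (Eef1a1, Eif1, Eif5, Eif4g2, Eif5a and Eef2) 64.1% ± 2.59. At the other end, 3 genes were not detected. Eef1a2 and Eif4e1b had 0 counts in all 3 libraries. Eef1akmt3, which encodes a lysine methyltransferase acting on eEF1A, had 0.13, 0.07 and 0.11 TPM in libraries 1, 2 and 3, from 8 counts in all. In the plot of levels by complex, the eIF3 subunits lay within a factor of 13.2 of each other, whereas the scanning and start codon factors ran from 20.3 TPM (Eif5b) to 3721 TPM (Eif1).

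**Figure D1:**
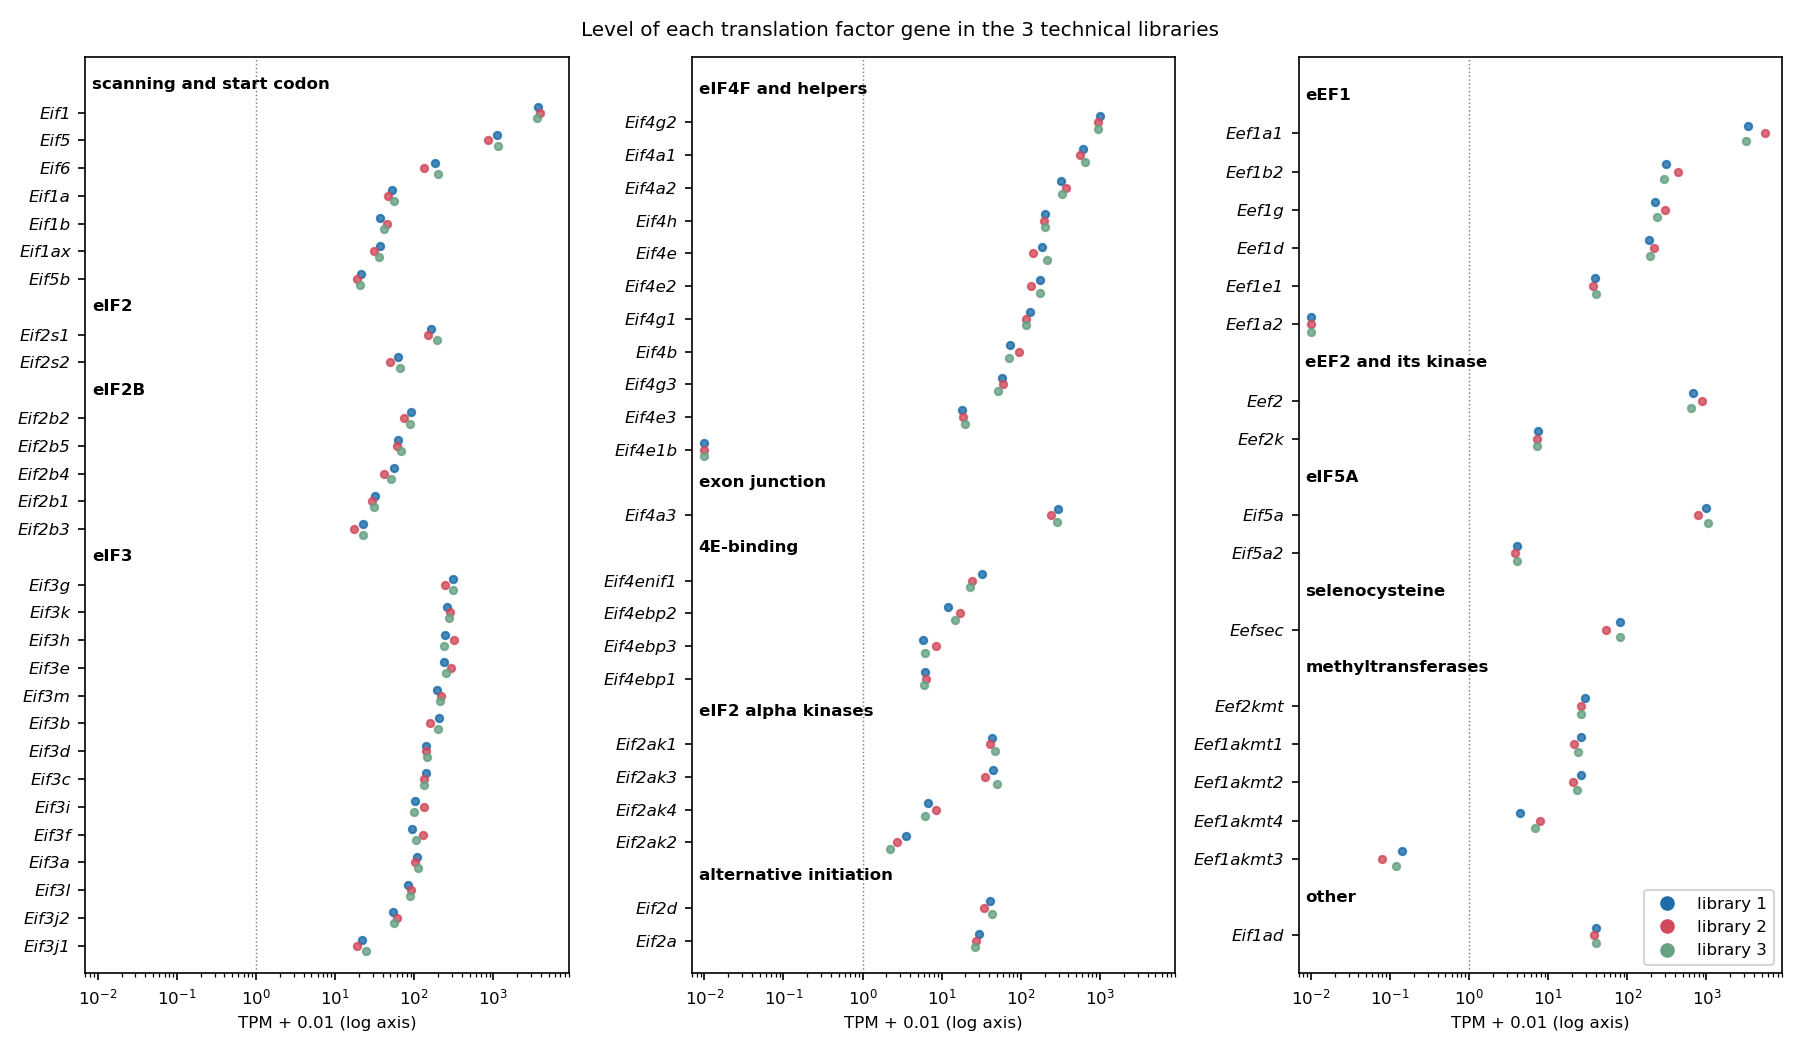
Level of each of the 67 translation factor genes (rows, grouped by complex) in libraries 1, 2 and 3 (coloured points), as TPM plus 0.01 on a log axis; the dotted line marks 1 TPM. Points at the left edge are genes with 0 counts (Eef1a2 and Eif4e1b), and Eef1a1 and Eif1 lie at the right edge.

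Among the eIF4G scaffold genes, the atypical family member was the highest. Eif4g2 encodes DAP5, an eIF4G relative that lacks the site for eIF4E, and it had 996, 944 and 945 TPM in libraries 1, 2 and 3. The canonical scaffold gene Eif4g1 had 129, 118 and 117 TPM, and its paralog Eif4g3 had 57.1, 59.1 and 50.9 TPM. Eif4g2 held 84.4% ± 0.397 of the TPM of the 3 Eif4g genes, and the ranges of the 3 genes did not overlap. The log2 ratio of Eif4g1 to Eif4g2, with 0.1 TPM added to each gene, was -2.99 ± 0.03. From the pooled counts, scaled for length, Eif4g2 was higher by a factor of 7.93 (95% interval 7.79 to 8.07); this interval and those below are exact Clopper-Pearson intervals and cover counting error only. With no length correction, the expected counts gave a log2 ratio of -2.55. On the older whole-number counts described at the end, which are also not corrected for length, the lead of Eif4g2 was much smaller (log2 ratio of Eif4g1 to Eif4g2 -0.66). Eif4g1 exceeded Eif4g3 by 1.12 ± 0.11 on the same log2 scale, a pooled factor of 2.17 (95% interval 2.11 to 2.23).

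Both paralogs of the eIF4A helicase were abundant. Eif4a1 (mm10 chr11:69666936-69672423, minus strand) had 619, 565 and 657 TPM, and Eif4a2 (mm10 chr16:23107444-23114136, plus strand) had 321, 369 and 333 TPM. Eif4a1 was higher in every library and held 65.9%, 60.5% and 66.4% of the TPM of the pair; library 2, in which Eif4a1 was lowest and Eif4a2 highest, gave the smallest lead. The log2 ratio was 0.85 ± 0.204 and the pooled ratio 1.78 (95% interval 1.75 to 1.82). On the older counts the order of the pair was the opposite (log2 ratio -1.93). Eif4a3 encodes the related helicase of the exon junction complex, which marks spliced mRNAs rather than driving scanning. It had 295, 241 and 289 TPM, and Eif4a1 was higher by 1.16 ± 0.08 on the log2 scale, an order that also turned on the older counts (-1.77).

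How far reads of these helicase genes can be told apart was measured from the annotated sequences. Over the most abundant annotated transcripts, the longest stretch that Eif4a1 and Eif4a2 share without a mismatch is 20 bases, and the longest shared by Eif4a1 and Eif4a3 is 23 bases; both are shown because they are far shorter than the 50-base window used for the comparison of reads (GENCODE M21 transcripts, sense strand).
Eif4a1 and Eif4a2: tatgatgtgattgctcaagc
Eif4a1 and Eif4a3: catgcctgcattgggggcaccaa
A larger overlap was found with a pseudogene. Of all 50-base windows in Eif4a1 transcripts, 71.6% occurred in no other annotated gene, and 24.2% also occurred in the processed pseudogene Eif4a-ps4, which the tables list at 137 TPM on average. In Eif4a2, 86.4% of windows were unique.

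By TPM, the detected genes for cap-binding proteins were a pair of similar level and a minor form. Eif4e, the canonical cap-binding protein, had 188, 144 and 214 TPM, and Eif4e2 (4EHP, a cap-binding protein that cannot bind the scaffold and acts as a repressor) had 173, 136 and 173 TPM. Their ranges overlapped across libraries, and the log2 ratio of 0.17 ± 0.12 had the same sign in all 3. With no correction for transcript length the sign turned (-0.17). On the older counts the log2 ratio was -2.05, with Eif4e2 higher. No order between these genes is therefore given. Eif4e3 had 17.8, 18.4 and 19.8 TPM and lay below Eif4e by 3.26 ± 0.26 on the log2 scale, by 2.06 with no length correction and by 1.29 on the older counts. Eif4e3 shares 373 exon bases on the same strand with the protein-coding gene Gm20696, listed at 25.5 TPM on average. Of the Eif4e3 windows, 87.6% were unique. The oocyte-type gene Eif4e1b had 0 counts, which allows up to 0.378, 0.291 and 0.318 TPM (3 counts) in libraries 1, 2 and 3. The posterior mean TPM of the same tables list Eif4e1b at 1.33, 1.06 and 1.14, so on that scale it would pass as detected. Of the helicase helpers, which stimulate eIF4A, Eif4h had 199 ± 4.61 TPM and Eif4b 79.7 ± 13.7 TPM.

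Genes for the repressors that hold eIF4E away from eIF4G were low. Eif4ebp2 had 12.03, 17.1 and 14.6 TPM, Eif4ebp3 5.87, 8.47 and 6.17 TPM and Eif4ebp1 6.1, 6.25 and 6.01 TPM. Eif4ebp1 lay below Eif4ebp2 by a log2 ratio of -1.22 ± 0.24, and the ranges of the pair did not overlap. Counting only transcripts annotated as protein coding, Eif4ebp1 had 1.05 ± 0.354 TPM and the log2 ratio was -3.703; it was -2.79 with no length correction and -1.82 on the older counts. Eif4ebp2 exceeded Eif4ebp3 by 1.08 ± 0.12, or by 3.10 with no length correction and 4.63 on the older counts; only 34.5% of the Eif4ebp3 windows were unique, and 65.5% also occurred in AC115631.1, an annotated gene that shares its exons on the same strand. Eif4enif1, the transporter that carries eIF4E into the nucleus and into granules, had 32.4, 24.5 and 23.01 TPM and was the highest of this group.

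Among the scanning and start codon factors, Eif1 and Eif5 stood far above the others. Eif1 (mm10 chr11:100319885-100322096, plus strand), whose protein keeps the scanning ribosome from starting at the wrong codon, had 3704, 3921 and 3537 TPM. Eif5, which triggers GTP hydrolysis by eIF2 at the start codon, had 1102, 861 and 1145 TPM. The paralog Eif1b had 36.7, 45.03 and 41.8 TPM, so Eif1 held 98.9% ± 0.0987 of the TPM of the pair, a pooled factor of 89.7 (95% interval 84.8 to 95.04). The level of Eif1 rests partly on short transcripts: 59.98% ± 2.11 of its TPM was assigned to transcripts annotated as noncoding, and its protein-coding transcripts alone had 1487 ± 50.5 TPM, still above every other initiation factor gene on that scale. Counted in that way, the log2 ratio of Eif1 to Eif1b was 5.18, against 6.498 ± 0.13 for the whole genes. On the older counts it was only 1.45.

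The eIF1A genes, which help open the small subunit for scanning, were closer in level. Eif1a had 51.9, 46.1 and 54.8 TPM and Eif1ax 36.5, 30.8 and 35.4 TPM, with Eif1a higher by 0.57 ± 0.06 on the log2 scale and by 1.75 over protein-coding transcripts. On the older counts the order turned (-0.68). Eif6, which keeps the large subunit from joining too early, had 172 ± 32.9 TPM. Eif5b, the GTPase that joins the subunits, was the lowest of the group with 21.5, 18.8 and 20.5 TPM; it overlaps Rev1 on the opposite strand over 1643 exon bases, and whether counting used strand is not given in the sources used here. The gene for eIF1A-like protein Eif1ad had 39.1 ± 1.12 TPM.

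The eIF2 machinery showed its alpha subunit gene Eif2s1 at 164, 148 and 195 TPM and its beta subunit gene Eif2s2 at 61.8, 50.1 and 66.7 TPM. Over protein-coding transcripts alone the gap was much smaller, with 65.8, 56.9 and 72.9 TPM for Eif2s1 against 60.9, 49.2 and 65.8 TPM for Eif2s2; Eif2s1 was higher in each library, while the ranges overlapped. The 5 subunit genes of eIF2B, the exchange factor, spanned a factor of 4.099, from Eif2b3 (22.7, 17.2 and 22.3 TPM) to Eif2b2 (91.8, 74.3 and 88.7 TPM). Over protein-coding transcripts alone Eif2b2 was not the highest, with 42.9 TPM on average against 64.2 TPM for Eif2b5. Eif2b5, the catalytic subunit, had 64.2 ± 4.099 TPM, and the median of the 5 was 49.6 ± 7.47 TPM. The factors that can place the initiator tRNA without eIF2 in special cases, Eif2a and Eif2d, had 27.9 ± 1.702 TPM and 39.7 ± 4.62 TPM.

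A family of kinases can phosphorylate eIF2 alpha and so shut initiation down, each on a different stress, and their RNA levels fell into a higher and a lower pair. Eif2ak1 (HRI, which senses haem and mitochondrial stress) had 42.8, 40.2 and 47.2 TPM, and Eif2ak3 (PERK, the endoplasmic reticulum stress sensor) had 44.4, 35.8 and 49.3 TPM. Eif2ak4 (GCN2, the amino acid sensor) had 6.66, 8.59 and 6.19 TPM, and Eif2ak2 (PKR, which senses double-stranded RNA) had 3.52, 2.72 and 2.24 TPM. The ranges of Eif2ak1 and Eif2ak3 overlapped, and both lay above those of the other two genes in every library. The log2 ratio of Eif2ak4 to Eif2ak1 was -2.597 ± 0.35, and that of Eif2ak2 to Eif2ak3 was -3.896 ± 0.44; on the older counts these were -1.44 and -4.76. The longest stretch shared by the main transcripts of either pair is 13 bases.

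The 14 genes of eIF3, the large scaffold that bridges the small subunit and eIF4F, were all detected, with a median of 139.9 ± 1.995 TPM. By mean level the highest was Eif3g with 308, 243 and 307 TPM, although Eif3h, Eif3e and Eif3k lay above it in library 2, and the lowest as listed was Eif3j1 with 21.6, 19.1 and 24.3 TPM. Above 200 TPM on average lay Eif3g, Eif3k, Eif3h, Eif3e and Eif3m, and the large core subunits Eif3a, Eif3b and Eif3c had 107, 187 and 137 TPM. Eif3d, the subunit able to bind the cap, had 143 ± 2.002 TPM, Eif3i 112 ± 19.1 TPM, Eif3f 109 ± 17.2 TPM and Eif3l 87.95 ± 3.68 TPM.

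Eif3j1 and Eif3j2, copies of the gene for the loosely bound j subunit, share most of their sequence. Eif3j2 was listed at 53.4, 60.9 and 55.9 TPM, above Eif3j1 in every library, and the log2 ratio of Eif3j1 to Eif3j2 was -1.39 ± 0.25. Their most abundant transcripts share a stretch of 155 bases, and 49.1% of the 50-base windows of Eif3j1 and 8.15% of those of Eif3j2 were unique. In the older count table the pair had 32, 22 and 32 counts for Eif3j1 and 2, 0 and 2 for Eif3j2, the opposite order. No order between these copies is given.

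Eif5a encodes a factor that carries the modified amino acid hypusine and relieves stalled ribosomes, and it was strongly expressed while its paralog was low. Eif5a had 979, 775 and 1058 TPM and Eif5a2 4.02, 3.78 and 4.04 TPM. The log2 ratio was 7.84 ± 0.18, a pooled factor of 236 (95% interval 218 to 257). It was 5.82 with no length correction and 4.89 on the older counts, still in favour of Eif5a. The hypusine enzymes Dhps and Dohh had 78.7 ± 1.399 TPM and 45.5 ± 4.82 TPM.

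Of the 2 eEF1A genes, only Eef1a1 reached the detection level. Eef1a1 (mm10 chr9:78478449-78489151, minus strand) had 3383, 5442 and 3191 TPM, with library 2 far above the others, and Eef1a2 (mm10 chr2:181147653-181157014, minus strand), the form of mature muscle and neurons, had 0 expected counts. A count of 0 allows up to 0.172, 0.132 and 0.144 TPM for Eef1a2 in libraries 1, 2 and 3. In these expected counts, against a limit of 3 counts over the 3 libraries together, scaled for length, Eef1a1 was at least 82953-fold higher. The log2 ratio with 0.1 TPM added was 15.25 ± 0.42 and is set by that added value. The older counts list 1 count for Eef1a2, in library 2, and 690, 727 and 702 for Eef1a1. The log2 ratio there was smaller, 9.94 with 0.5 added to each count, and is likewise set by the added value.

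The longest stretch that the main transcripts of the eEF1A pair share without a mismatch is 23 bases, shorter than the 50-base window, and is shown for that reason (GENCODE M21, sense strand).
Eef1a1 and Eef1a2: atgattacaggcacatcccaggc
Of the Eef1a1 windows of 50 bases, 59.6% were unique. Windows were shared with 21 other annotated genes, 18 of them pseudogenes listed at 28.2 TPM in sum. Gm26377, annotated as a microRNA gene, shares 108 exon bases with Eef1a1 on the same strand and was listed at 954 TPM on average. All windows of Eef1a2 were unique.

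Of the subunits that recharge eEF1A with GTP, Eef1b2 was the highest and Eef1d the lowest in every library by whole-gene TPM. Over protein-coding transcripts alone the order changed, with means of 167 TPM for Eef1b2, 190 TPM for Eef1g and 185 TPM for Eef1d. Only 55.8% of the 50-base windows of Eef1g were unique. Eef1b2, the exchange factor, had 309, 430.4 and 286 TPM, Eef1g 227, 301 and 234 TPM and Eef1d 189, 217 and 195 TPM; in all 3 genes library 2 was the highest. Eef1e1, which encodes a small protein of the tRNA synthetase complex, had 38.5, 36.8 and 40.6 TPM. Eef2 had 674, 888 and 634 TPM, again highest in library 2, and the gene for its inhibitory kinase, Eef2k, had 7.51, 7.15 and 7.18 TPM, by mean the lowest of the detected Eef genes after Eef1akmt4. Eefsec, which delivers selenocysteine, had 81.1, 53.2 and 80.3 TPM, lowest in library 2.

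The methyltransferases of elongation factors were all low. Eef2kmt had 28.8, 25.7 and 25.8 TPM, Eef1akmt1 23.6 ± 2.68 TPM, Eef1akmt2 23.2 ± 2.76 TPM and Eef1akmt4 4.4, 7.88 and 6.85 TPM. Eef2kmt and Alg1 share 472 exon bases on opposite strands, and Eef1akmt4 shares exon bases with Alg3, so these values are uncertain.

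**Figure D2:**
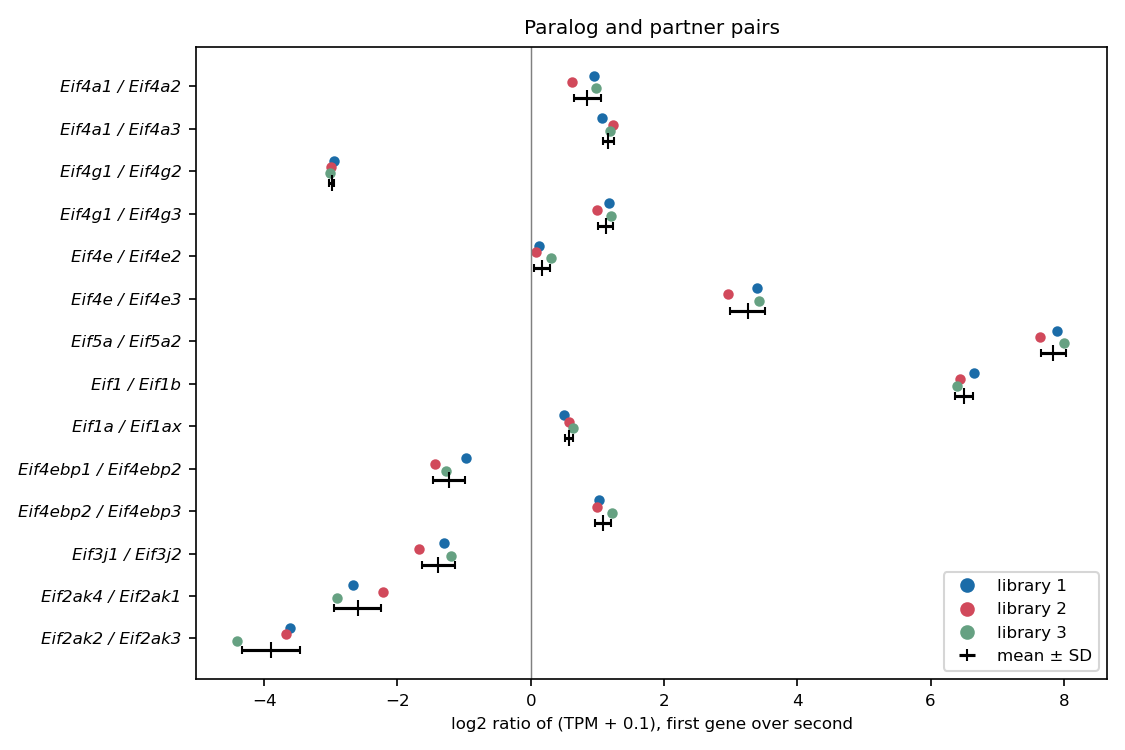
Log2 ratio of TPM plus 0.1 for 14 gene pairs in libraries 1, 2 and 3 (coloured points), with the mean and SD of the 3 libraries in black below each row; positive values mean that the first gene was higher. Every pair kept its side of 0 in all 3 libraries, from -3.896 for Eif2ak2 to Eif2ak3 up to 7.84 for Eif5a to Eif5a2; Eef1a1 to Eef1a2 is left out because Eef1a2 had 0 counts.

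Several of the abundant genes were made up of many annotated transcripts, some of which encode no full protein. Over the 65 genes with an isoform value, the most abundant transcript held a median of 73.0% of the gene's TPM; it held at least 90% in 17 genes and under 50% in 13. In 7 genes (Eif1, Eif1ax, Eif2a, Eif2s1, Eif3j1, Eif4ebp1 and Eif5b) it was not annotated as protein coding. Transcripts annotated as protein coding held at least 90% of TPM in 32 genes and under 50% in 10 (Eif1, Eef1b2, Eif4a2, Eif2s1, Eef1e1, Eif1ax, Eif2a, Eif3j1, Eif5b and Eif4ebp1). For the same number of reads TPM is higher for a shorter transcript, and some of these top transcripts are short, such as Eif1-202 (383 bases) and Eif1ax-202 (416 bases).

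Eif4a2 was the clearest such case among the abundant genes. Its transcripts with a retained intron held 37.8% ± 0.382 of TPM, those marked for nonsense-mediated decay, the pathway that destroys mRNAs with early stop codons, 28.8% ± 0.945, and protein-coding transcripts 33.3% ± 0.635. The main coding transcript, Eif4a2-202, held 32.9% ± 0.5601. In Eif4a1 the coding transcripts held 67.1% ± 3.29, all of it in Eif4a1-213. The lead of Eif4a1 over Eif4a2 was therefore larger over protein-coding transcripts, with a log2 ratio of 1.86. Annotated small nucleolar RNA genes overlap some of these Eif4a2 transcripts.

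Eef1b2, Eif5 and Eif6 also had large shares outside protein-coding transcripts, but in different classes. Their protein-coding transcripts held 49.1%, 58.4% and 56.3% of TPM, more than in Eif4a2. In Eef1b2, transcripts marked for nonsense-mediated decay held 44.4% ± 3.06 of TPM, and the coding transcript Eef1b2-209 held 48.2% ± 1.94. In Eif5, retained-intron transcripts held 37.3% ± 0.494, and no transcript held more than the 19.9% ± 4.35 of Eif5-214. In Eif6, 30.4% ± 2.74 was marked for decay and Eif6-201 held 52.05% ± 1.595. The other genes with a top transcript under 50% were Eif5a (Eif5a-209, 49.1% ± 3.38), Eif4g1 (Eif4g1-202, 39.4% ± 8.404), Eif4g3, Eif1a, Eif2b2, Eif2b4, Eif4enif1, Eef1e1, Eef2kmt and Eif1, whose noncoding Eif1-202 held 43.02% ± 1.17.

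Other genes were carried by a main coding transcript. Eef2-201 held 96.98% ± 0.846 of Eef2, Eef1a1-201 89.3% ± 0.697 of Eef1a1 and Eif4h-201 73.0% ± 1.99 of Eif4h. Eif4e2-204 held 69.1% ± 0.1504 of Eif4e2, Eef1d-207 66.7% ± 3.06 of Eef1d and Eif4g2-206 66.5% ± 2.05 of Eif4g2. For Eif4e the short Eif4e-205 held 52.6% ± 2.36.

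**Figure D3:**
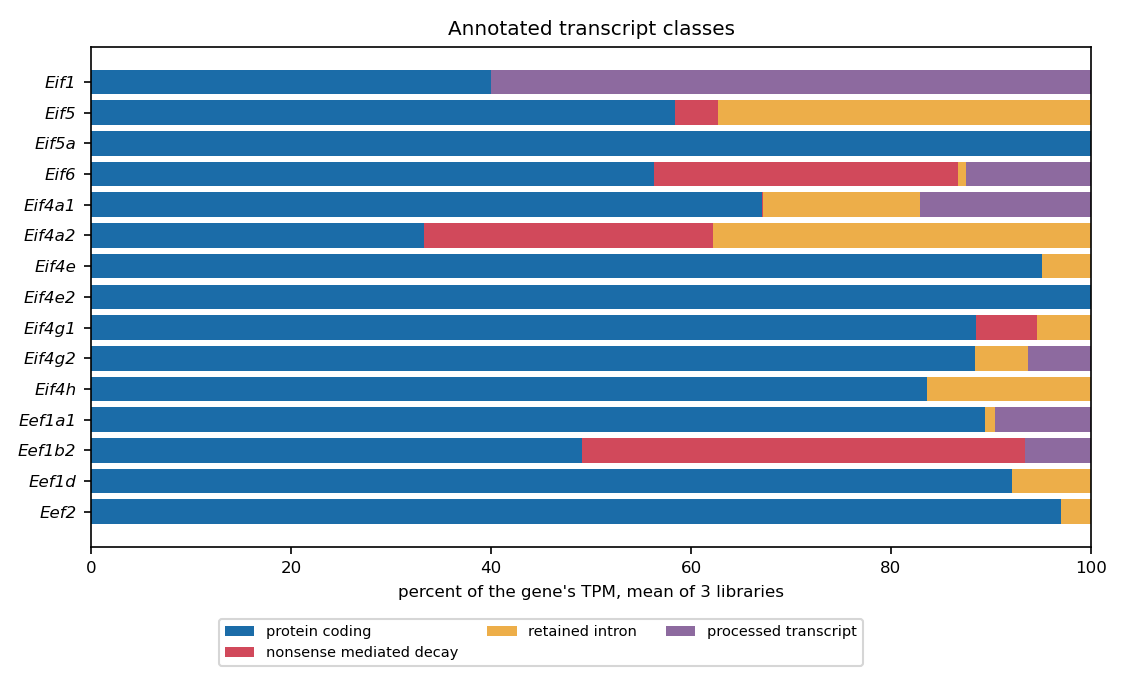
Percent of each gene's TPM (mean of 3 libraries) assigned to transcripts of each annotated class, for 15 translation factor genes. Eif5a and Eif4e2 consist of protein-coding transcripts, while in Eif4a2 retained-intron and decay-marked transcripts outweigh the protein-coding 33.3% and in Eif1 noncoding processed transcripts outweigh the protein-coding 40.02%.

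The technical libraries differed from one another, and translation factor genes differed in both directions. Each gene's expected counts were compared between the 3 libraries by a chi-square test on library sizes scaled with TMM, the trimmed mean of M-values, with Benjamini-Hochberg adjustment over all 13090 genes that had a mean of at least 10 counts. This test takes counting error as its only noise and compares these libraries, not conditions. 41 of the 64 translation factor genes tested differed at an adjusted p below 0.05, against 40% of all genes tested; 40 of the 60 with a mean of at least 100 counts differed, against 49.7% of all genes with as many counts. 4 also had a ratio of at least 1.5 between the highest and the lowest library, against 10.1% of all genes tested. 23 differed and were highest in library 2 (18.2% of all genes tested), 16 differed and were lowest in library 2 (17.4%), and Eif4g2 and Eif4enif1 differed and were highest in library 1. The 18.2% and 17.4% are not matched for counts.

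The 9 genes on a list of 5′ terminal oligopyrimidine (TOP) mRNAs were all highest in library 2. TOP mRNAs begin with a run of pyrimidines, encode ribosomal proteins and several translation factors, and are held back or released as a class by mTOR signalling through Larp1. Each of the 9 (Eef1a1, Eef1b2, Eef1d, Eef1g, Eef2, Eif3e, Eif3f, Eif3h and Eif4b) passed the test as well. The log2 ratio of TMM-scaled counts in library 2 to the mean of libraries 1 and 3 ran from 0.28 (Eef1d) to 0.86 (Eef1a1), with a median of 0.55. The 55 other translation factor genes tested had a median of 0.01, 80 ribosomal protein genes 0.69 and all genes tested 0.003. The list was chosen knowing that ribosomal protein genes were higher in library 2. Of all genes tested, 19.8% lay at or above the value of Eef1d. On the older whole-number counts the median of the list was 0.16, and Eef1a1 had -0.02.

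The size of the difference varied within the list. Eef1a1 was 1.86-fold higher in the highest than in the lowest library, which was the largest difference among the abundant translation factor genes; its adjusted p was 0 to the precision of the calculation, as was that of Eef2 (1.499-fold). Eef1b2 differed by 1.61-fold (adjusted p = 1.21e-71, chi-square test with Benjamini-Hochberg adjustment) and Eif3f by 1.54-fold (adjusted p = 3.81e-61, same test). With library 2 left out, 17 of the 64 translation factor genes still differed between libraries 1 and 3, a pair in which 14.7% of all genes tested differed. That share is not matched for counts, and 60 of the 64 had a mean of at least 100 counts. The TOP list took 31.7%, 42.3% and 30.7% of the set's TPM in libraries 1, 2 and 3. Ribosomal RNA and ribosomal protein genes moved in the same direction as the list, and their part in the result was not tested.

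**Figure D4:**
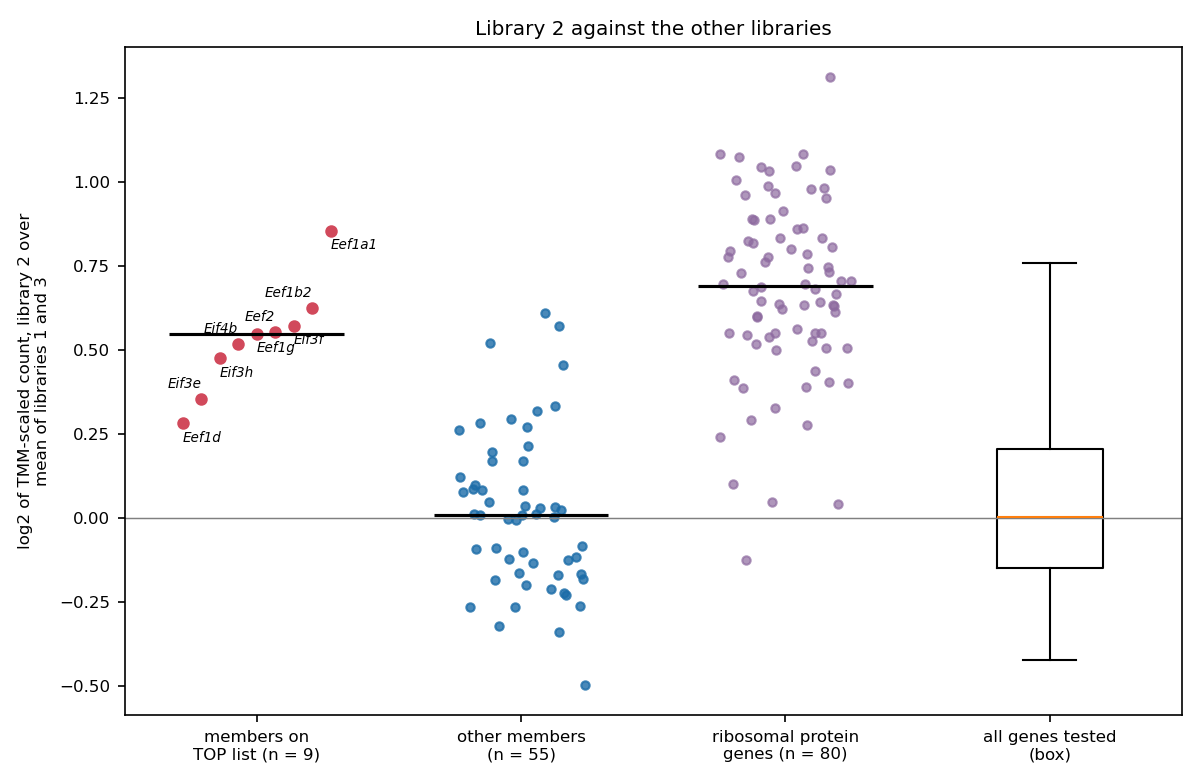
Log2 ratio of TMM-scaled counts in library 2 to the mean of libraries 1 and 3, for the 9 tested genes on the TOP list (named), 55 other translation factor genes and 80 ribosomal protein genes (points, with black lines at the medians), and for all 13090 genes tested (box from the 25th to the 75th percentile, whiskers at the 5th and 95th). All points of the TOP list lie above 0, and the other translation factor genes lie on both sides of it.

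Genes off the list also moved, in both directions. Eif3i lay within the range of the list (102, 134 and 99.9 TPM in libraries 1, 2 and 3, log2 ratio 0.52, adjusted p = 2.60e-25, chi-square test). Eif4a2 (0.296), Eif3m (0.26), Eif3k (0.21) and Eif3l (0.196) were higher too. With Eif3d, Eif3j2 and the 3 eIF3 genes on the list, 9 of the 14 eIF3 genes differed and were highest in library 2, against 18.2% of all genes tested. Another 2 eIF3 genes, Eif3g and Eif3b, differed and were lowest in library 2, against 17.4% of all genes tested. The sensor kinase gene Eif2ak4 (0.45, 1.47-fold between highest and lowest) and the little-counted Eef1akmt4 (0.57, 1.91-fold) completed the 6 largest differences by that ratio among genes that passed the test. Eif4ebp3 had a ratio of 1.58 (log2 ratio 0.61 for library 2) and did not pass (adjusted p = 0.0854, chi-square test).

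Several genes were lower in library 2, eIF3 genes among them, namely Eif3g (-0.22) and Eif3b (-0.199). Eefsec had the lowest ratio (-0.495), followed by Eif6 (-0.34), Eif4e (-0.32), Eif2ak3 (-0.27), Eif4e2 (-0.26) and Eif5a (-0.26). Both eIF2 subunit genes, Eif2s2 (-0.21) and Eif2s1 (-0.18), differed and were lowest there. The helicases split, with Eif4a1 at -0.09 and Eif4a2 at 0.296. These ratios are relative to TMM scaling, under which the median of all genes tested was 0.003; on the TPM scale the median of the 55 genes off the list was -0.104 and that of the list 0.39, so the sign of a small difference depends on the scaling.

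The first 30 bases of each gene's most abundant annotated transcript were searched for a pyrimidine run, defined as a C followed by at least 4 further C or T on the sense strand. Of the TOP list, 6 of 9 genes held such a run (66.7%), against 22 of 55 other detected translation factor genes (40%), 39 of 80 ribosomal protein genes (48.8%) and 3174 of 9817 detected protein-coding genes (32.3%). A run starting at base 1 or 2 was found in 2 genes of the list, among them Eif3f, in none of the 55, in 13 ribosomal protein genes (16.3%) and in 4.47% of detected protein-coding genes. The starts of 8 list genes are shown because this class is defined by them (mm10, GENCODE M21 transcripts, bases 1 to 30, run in capitals). The first 5 genes are on the list and hold a run, the next 3 are on the list without one, and Eif3i, Eif3k and Eif3c are off the list.
Eif3f, chromosome 7, plus strand: CTCTTTCTCggcaagatggcttctccggcc
Eif3e, chromosome 15, minus strand: gaacaagcgCTCCTTTCCCCCggcaagatg
Eif4b, chromosome 15, plus strand: cgccgcgccaCCCCCTCgcgctgctttacg
Eef2, chromosome 10, plus strand: gttgacgtcagcggtCTCTTCCgccgcagc
Eif3h, chromosome 15, minus strand: tcacggagcctcgtagttccgCTTCCggcg
Eef1a1, chromosome 9, minus strand: ttcccgagggtgggggagaacggtatataa
Eef1d, chromosome 15, minus strand: gcagtcctgagctcgcagttccaggttttg
Eef1g, chromosome 19, plus strand: tttccaactcagcggggctgtagacggaac
Eif3i, chromosome 4, minus strand: agtCTTTTTCCggtcccactcacattgcct
Eif3k, chromosome 7, minus strand: acaCCTCTCTTCCggtcctctagtgctaag
Eif3c, chromosome 7, minus strand: aaCCTTTTCCTCTTCCggcgtcgtgcctgt
Off the list, 4 genes had a run starting at base 4. Eif3i and Eif3k passed the test and were higher in library 2, while Eif4h had a log2 ratio of 0.03 (adjusted p = 0.288, chi-square test) and Eef1e1 of -0.12 (adjusted p = 0.181, same test). Eif3c holds the longest run shown (14 bases from base 3), and its log2 ratio of library 2 to the others was -0.00251 (adjusted p = 0.728, chi-square test). Annotated starts need not be the starts used in these cells, and a run in these letters is a description, not a measured TOP element.

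Of 29 further genes of the translation pathway, 28 were found in the tables under the symbols used and 27 were detected. Tpt1, a small growth-associated TOP mRNA, was the highest with 1133, 1744 and 1097 TPM. Ppp1r15a (GADD34), which brings the phosphatase that reverses eIF2 alpha phosphorylation, had 658, 472 and 672 TPM, and Rack1, a ribosome-bound scaffold, 431, 585 and 426 TPM. Paip2, an inhibitor of the polyA-binding protein, had 484, 439 and 508 TPM, and that protein's gene Pabpc1 233, 302 and 241 TPM. Gspt2, a paralog of the termination factor gene Gspt1, had 0 counts.

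These pathway genes also differed between libraries: 17 of the 27 tested did (40% of all genes tested), 11 of them highest (18.2%) and 4 lowest (17.4%) in library 2. These shares of all genes tested are not matched for counts. Tpt1 (0.76), Atf4 (0.701), Mtor (0.59), Ddx3x (0.56), Rptor (0.52), Rack1 (0.49), Paip2b (0.46), Pabpc1 (0.46) and Mknk2 (0.298) had log2 ratios of library 2 to the mean of libraries 1 and 3 within the range of the TOP list. The lowest value of that list was reached or passed by 19.8% of all genes tested. By TPM, Mtor was highest in library 1 (23.9, 22.1 and 18.4 TPM in libraries 1, 2 and 3), while the other genes named were highest in library 2. Ppp1r15a was lower in library 2, with a log2 ratio of -0.37. Atf4 encodes the transcription factor that is translated when eIF2 alpha is phosphorylated, and its RNA had 146, 213 and 138 TPM.

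The deposited files hold a further whole-number count for 66 of the 67 genes on the older GENCODE M4 annotation, and for the abundant translation factors these counts were much smaller. For Eef1a1 they were 690, 727 and 702 in libraries 1, 2 and 3, against expected counts of 46621, 98355 and 52339. Over the 7 genes of highest level, the older counts were 1.07% (Eef1a1) to 19.7% (Eef2) of the expected counts, and over the other translation factor genes with both values the median was 47.6%. The median over all genes tested was 51.5%. Of the other detected genes, Eif3j2 (0.1005%) and Eef1g (4.77%) had the lowest values. Across the 64 genes with both values, Spearman's rho between mean TPM and this percent was -0.36, a description over genes that share libraries.

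**Figure D5:**
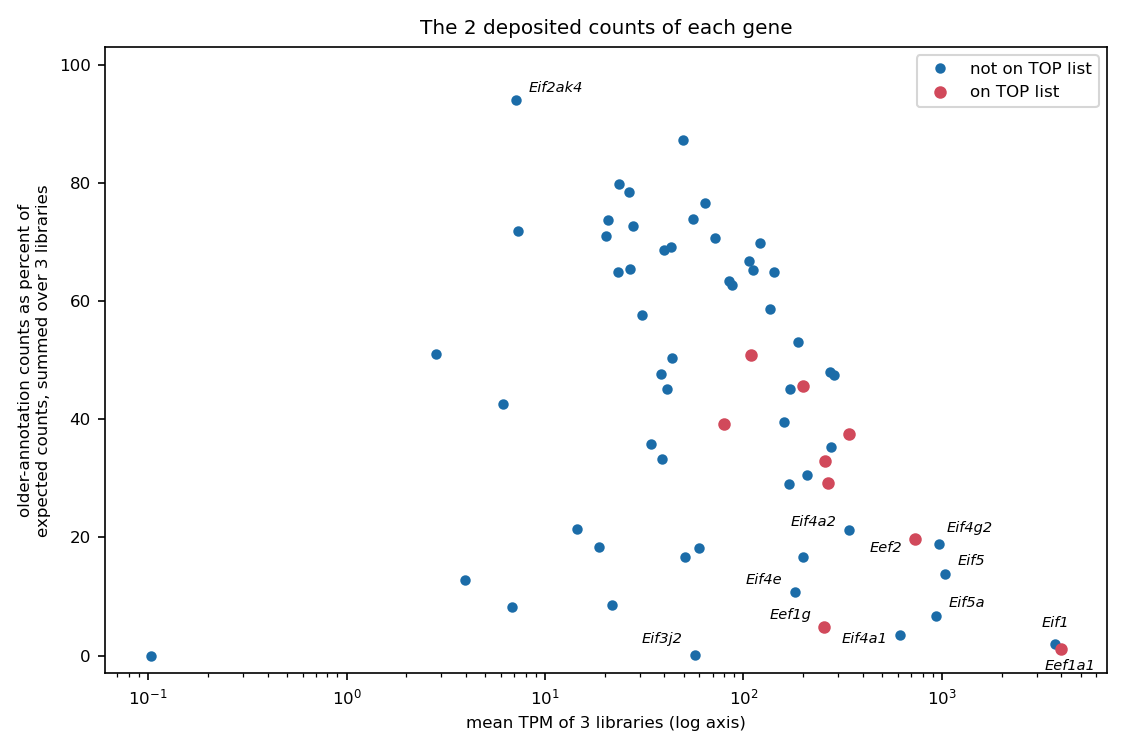
Whole-number counts on the older annotation as a percent of the expected counts, both summed over the 3 libraries (vertical axis), against mean TPM (log axis), for 64 translation factor genes. Eef1a1, Eif1, Eif4a1 and Eif5a lie below 10% and the low-level kinase gene Eif2ak4 at 93.97%.

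The choice of table changed some of the results above. With no length correction, the expected counts gave a log2 ratio of 0.68 for Eif4a1 to Eif4a2. On the older counts, also without length correction, Eif4a1 had 300, 350 and 323 and Eif4a2 1117, 1390 and 1207. The order of the helicase pair thus turned on the older counts, to a log2 ratio of -1.93. 5 of the 15 pairs turned sign on these counts (Eif4a1 to Eif4a2, Eif4a1 to Eif4a3, Eif4e to Eif4e2, Eif1a to Eif1ax and Eif3j1 to Eif3j2), whereas all 15 kept it over protein-coding transcripts. On these counts 8 of the 9 TOP list genes, all but Eef1a1, were higher in library 2 than the mean of the others. Among them Eif4b at 0.502 and Eif3f at 0.32 were the highest. The share of all genes that met this rule on the older counts was not measured, so 8 of 9 is a description only. In the expected counts, all 6 TOP list genes with at least 90% unique windows (Eef2, Eef1b2, Eif3e, Eef1d, Eif3f and Eif4b) were higher in library 2 than in both others, as were 39.2% of all genes tested. Over all translation factor genes a median of 96.2% of windows were unique; 49 genes had at least 90% and 3 had under 50%.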

How the data were processed

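For each of 3 technical polyA RNA-seq libraries of 1 mouse, the authors deposited gene and transcript tables on mm10 with GENCODE M21, per the text beside the deposited files. Per the file headers these hold expected counts (estimated reads), TPM (maximum-likelihood and posterior mean), and each transcript's percent of its gene's TPM. A table of whole-number counts on GENCODE M4 (22457 genes) was also deposited by the authors. The sources used here do not name the aligner, the counting tool or a strand setting. The authors' TPM cover gene and other entries alike. Entries naming no gene held 0.247%, 0.1995% and 0.325% of expected counts and entered neither library sizes nor tests. Length minus effective length was 49, from which a 50-base window was taken.

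Translation factor genes were protein-coding genes with symbols starting with Eif or Eef. They, the complexes, pairs, TOP list and other lists were chosen with earlier results of these data known. Values are named for the pairs, the highest and lowest gene of each complex, the 6 largest differences between libraries, chosen isoforms and the 5 highest and the lowest further pathway genes; other genes are named as examples. Detected means at least 1 TPM in every library. Expected counts were rounded and scaled with TMM in edgeR 4.0.16 under R 4.3.3, using genes that averaged 10 or more counts; a chi-square homogeneity test per gene (scipy 1.17.1) was adjusted over all of these by Benjamini-Hochberg, and the procedure was tested on simulated data. Technical replicates differ beyond counting error: edgeR's common coefficient of variation was 12.6%, and libraries 1 and 3 differed in 14.7% of genes, 1 and 2 in 27.5% and 2 and 3 in 36.7%. None was a repeat of another. Pairs used a pseudocount of 0.1 TPM, or of 0.5 on the older counts, and pooled ratios with Clopper-Pearson 95% intervals. A count of 0 allows up to 3 counts; reads carry no molecular identifiers, so limits and intervals cover counting error only. Windows were compared with all GENCODE M21 transcripts in both orientations. Alternatives were library totals and DESeq2 1.42.0 size factors, other minimums and pseudocounts, posterior means, rescaled TPM, no length correction, the older counts and leaving out each library; protein-coding transcripts only, and all alternatives for the TOP list and for pairs other than Eif4a1 to Eif4a2 and Eef1a1 to Eef1a2, were added after seeing the data. The start sequence of 1 gene is not reported here.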

Additional observations from a re-analysis of the deposited data

How the results depend on the processing

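The count of translation factor genes that were detected and the count of TOP list genes highest in library 2 (9) kept their values or stayed within 1.5 times them under every alternative run for them; posterior means gave 65 detected genes, with Eif4e1b added. The number of genes differing between libraries was 17 on the older counts and 17 to 38 with 1 library left out, the lowest without library 2. The set's share was 2.095% with TPM rescaled over protein-coding genes without mitochondrial genes and 1.63% of expected counts with no length correction; leaving out a library gave 1.71% to 1.83%. The median level was 55.8 TPM on posterior means, 75.7 rescaled and 75.6 over detected genes. The median log2 ratio of library 2 to the others over all translation factor genes, 0.0304 with TMM, was 0.0287 with DESeq2 size factors, 0.0385 on older counts and 0.0152 to 0.0155 with library 1 or 3 left out, and turned to -0.008901 on library totals and -0.0769 on TPM. For genes off the TOP list it turned to -0.0301 on library totals, -0.104 on TPM and -0.01297 without library 3 (0.000206 without library 1), so its sign is not settled. For the TOP list it was 0.51 on library totals, 0.39 on TPM, 0.16 on older counts and 0.53 to 0.55 with library 3 or 1 left out. The log2 ratio of Eef1a1 to Eef1a2 follows the pseudocount: 11.93 with 1 and 18.57 with 0.01, 14.52 on posterior means, 16.92 with no length correction and 9.94 on older counts. Eif4a1 to Eif4a2 was 1.86 over protein-coding transcripts, an alternative chosen after seeing the data, 0.78 to 0.97 with a library left out, and turned to -1.93 on older counts. Also turned on older counts were Eif4a1 to Eif4a3 (-1.77), Eif4e to Eif4e2 (-2.05, and -0.17 with no length correction), Eif1a to Eif1ax (-0.68) and Eif3j1 to Eif3j2 (4.298). The cause was not tested. No paired analysis was possible because there is 1 group.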
